A study of Mus musculus with 9 samples.

Results

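Methylphenidate (MPH) is a psychostimulant prescribed for attention deficit hyperactivity disorder, and the arrays described here measured RNA of the substantia nigra of Swiss Webster mice after long treatment with it. The comparison set all 6 arrays labelled MPH, 3 labelled 1 mg/kg and 3 labelled 10 mg/kg, as 1 group against the 3 saline arrays, so that no pooled value depended on which dose an array stood for. Values by dose are given as labelled, and whether both dose labels are the right way round could not be settled from the sources used here. Mice of all groups were injected once a day on a school-week schedule from the end of the fourth postnatal week for 3 months, and the tissue was taken after a week without drug. Swiss Webster is an outbred stock, the labels name 1 mouse per array, and they give no sex. Each of 45037 probe sets, groups of short probes against 1 transcript, was described by whether all 6 MPH arrays lay above, or all 6 below, all 3 saline arrays. That held for 4481 probe sets, of which 1870 lay above (4.15% of all probe sets) and 2611 below (5.8%), so that 58.3% of the separated probe sets were lower after MPH. With each of 17097 genes represented by its brightest probe set, 582 genes (3.4%) had all MPH arrays above and 1334 (7.8%) had all MPH arrays below saline.

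Dopamine neurons of the substantia nigra project to the striatum, where dopamine released from their axons is taken back up by the dopamine transporter. MPH blocks that transporter, so that dopamine persists longer outside the cell. The neurons make dopamine from tyrosine through tyrosine hydroxylase and aromatic amino acid decarboxylase, load it into vesicles, and degrade what leaks into the cytoplasm, where dopamine can oxidize to reactive quinones. They are the neurons lost in Parkinson's disease.

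Values below are on the log2 scale on which they were deposited, so a difference of 1 is a doubling, and the gap is the distance between the nearest pair of arrays from opposite groups. The 23 control probe sets on the array that match no transcript had a median of 2.93, so values near 3 could not be told from background, and the median of every array lay between 4.49 and 4.53. The separated probe sets were mostly small differences. Their median difference was 0.20 above and -0.21 below, with median gaps of 0.042 and 0.044, and 92 of those above and 87 of those below differed by at least 0.5. The gap was at least 0.1 for 327 probe sets above and 525 below, and at least 0.3 for 17 and 25. Separation was more frequent in brighter probe sets. With the probe sets parted into 4 equal classes by mean value, 3.56% of the dimmest class lay above and 4.14% below saline, while 4.75% of the brightest class lay above and 8.53% below. Over all genes the median difference was -0.02, and 56.2% of genes had the lower mean after MPH.

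**Figure D1:**
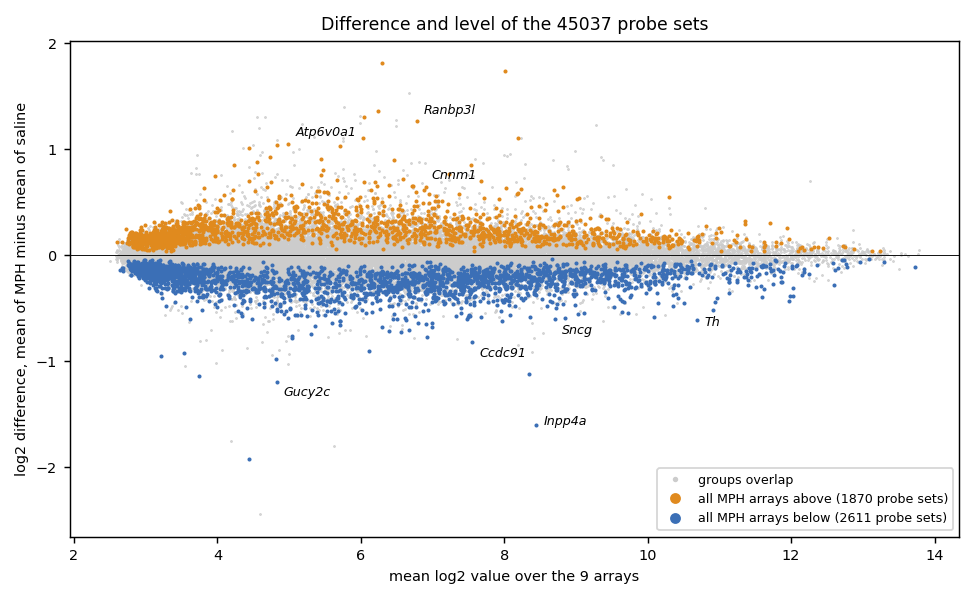
Each point is 1 of the 45037 probe sets, with its mean log2 value over the 9 arrays on the horizontal axis and the mean of the 6 MPH arrays minus the mean of the 3 saline arrays on the vertical axis. Orange points have all MPH arrays above saline (1870) and blue points all MPH arrays below (2611), and most of both lie within 0.5 of 0.

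Some arrays stood apart in genes that do not follow the labels, while the 3' to 5' difference of Actb given below did follow the treatment label. The array labelled 1 mg/kg replicate 2 had an Xist value of 9.002, where the other 8 arrays lay between 2.99 and 4.62, and low values of the Y chromosome genes Eif2s3y (4.11), Kdm5d (4.70) and Uty (3.53). The array labelled 10 mg/kg replicate 1 had higher values of the forebrain genes Icam5 (7.19) and Itpka (6.03) than any other array. Both come from a list of 15 markers of cortex and hippocampus neurons, of which not all were high there. Rorb (7.53) was the lowest of the MPH arrays on it. Tph2, which makes serotonin in the raphe, read 4.24, 7.47 and 6.96 in the saline arrays and between 3.20 and 5.21 in the MPH arrays. The 3' probe set of Actb exceeded its 5' probe set by 0.882 to 0.934 in saline and by 1.027 to 1.187 in the MPH arrays, whereas the same difference for Gapdh was 0.231 to 0.387 in saline and 0.224 to 0.409 after MPH. This 3' to 5' difference grows as RNA degrades, and its part in the results below was not tested.

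**Figure D2:**
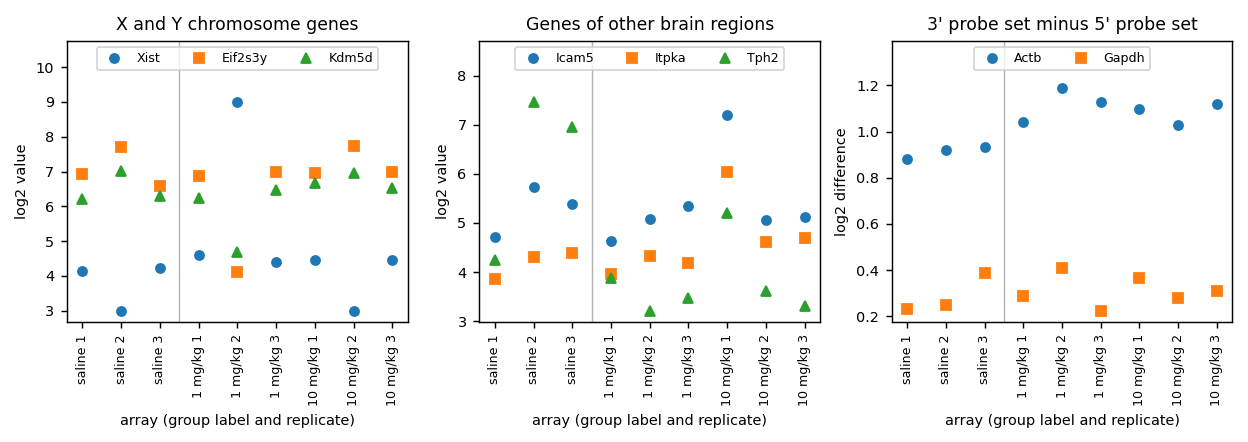
Log2 values on each of the 9 arrays for X and Y chromosome genes (left) and for genes of forebrain and raphe neurons (middle), and the log2 difference between the 3' and 5' control probe sets of Actb and Gapdh (right). The vertical line parts saline from MPH; Xist is at 9.002 on the array labelled 1 mg/kg replicate 2, and all 6 Actb differences after MPH lie above the 3 of saline.

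In a linear model of all probe sets (limma) that held the replicate number as a block, 1 probe set (0.00222%) was higher after MPH at an adjusted p of at most 0.05 and 0 (0%) were lower. At an unadjusted p of at most 0.05 the same fit had 2073 probe sets higher and 2935 lower, and the second smallest adjusted p was 0.154. Without the block, 51 probe sets were higher (0.113%) and 101 lower (0.224%), and each of these 152 also had groups that did not overlap. They named 22 genes higher and 81 genes lower. The block was kept because the deposited values had hardly any difference left between replicate numbers, and if these were removed before deposit, a fit that ignores it counts more degrees of freedom than the data hold. No gene named below passed in the fit with the block alone, so the values and the groups' overlap are given. Some passed when an intensity trend and the robust option of limma were added to the block, as given near the end. For a single gene with 6 arrays against 3, the exact two-sided permutation test cannot give less than p = 0.0238. Every separated gene has that value. The test took all ways of parting the arrays into 6 and 3, without regard to the replicate number. If replicate differences were removed before deposit, these ways are not equally likely, and its p-values are not exact.

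The probe set that passed, 1456781_PM_at, names no gene in the platform annotation and was singled out after its values were seen. It read 4.97, 5.25 and 5.31 in the saline arrays and from 6.28 through a median of 6.50 to 6.60 in the MPH arrays. The gap of 0.967 was the widest of any probe set. The difference was 1.30 (SE 0.098), a 2.47-fold rise, with an adjusted p of 0.0196, and it was 1.26 for the arrays labelled 1 mg/kg and 1.35 for those labelled 10 mg/kg. The call was lost when the 2 dose labels were fitted as separate groups, and also when saline replicate 2 or 3, 10 mg/kg replicate 2 or 3, or 1 mg/kg replicate 1 or 2 was left out.

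Dopamine neuron genes had a large share of members below saline. Of 31 markers measured, 29 had the lower mean after MPH. In 14 (45.2%) all 6 MPH arrays lay below all saline arrays, beside 7.8% of all genes, and none had them above. This list, as the others, was chosen with earlier results of these data known, so its share describes these members and tests nothing. The median difference over the list was -0.43, against -0.02 over all genes. Its median on each MPH array lay between 0.28 and 0.49 below the saline mean, while the saline arrays lay between -0.09 and 0.08 of it. Without the block 8 of the 31 passed at 0.05 (Th, Ddc, Aldh1a1, Drd2, Chrna6, Gucy2c, Sncg and Slc10a4), and with the block alone none. With the block, an intensity trend and the robust option, Th, Chrna6, Sncg and Slc10a4 were among the probe sets called lower. Bulk RNA does not tell fewer dopamine neurons, or fewer of them in the dissected piece, from less of these RNAs in each neuron. Without the array labelled 10 mg/kg replicate 1 the count was 17 of 31, without that labelled 1 mg/kg replicate 2 it was 15, and without both it was 18 (54.8%, 48.4% and 58.1%), with medians of -0.42, -0.42 and -0.41. Over all genes the share below was then 9.61%, 8.4% and 10.6%. If replicate differences were removed before deposit, leaving an array out does not undo its effect on the arrays of the same number. With all 9 arrays no other list had as large a share, but without the array labelled 10 mg/kg replicate 1 alone or together with the other, the 8 serotonin neuron markers had a larger one, 62.5%. Lmx1a and Lmx1b stayed near background in both groups, while Th, Ddc, Slc6a3 and Aldh1a1 were among the bright probe sets of every array, as the labelled tissue would have them.

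The synthesis of dopamine was represented by Th, Gch1 and Ddc. Th, the rate-limiting tyrosine hydroxylase, read 11.18, 11.13 and 10.99 in saline and 10.31 to 10.63 (median 10.50) after MPH. The highest MPH array was thus 0.361 below the lowest saline array. The difference was -0.61 (SE 0.080), 1.53-fold lower, with an adjusted p of 0.159 with the block and 0.0205 without. Gch1, GTP cyclohydrolase 1, starts the synthesis of tetrahydrobiopterin, the cofactor that tyrosine hydroxylase needs. Its probe set with the wider gap read 6.97, 7.09 and 7.05 in saline and 6.07 to 6.49 (median 6.35) after MPH, a difference of -0.72 (SE 0.090). Its brighter probe set, which stands for it in the list, was separated as well, at 7.22, 7.61 and 7.42 against 6.44 to 7.10. Ddc, the decarboxylase that completes dopamine, read 12.31, 12.34 and 12.19 in saline and 11.80 to 11.96 after MPH, a difference of -0.39. These 3 enzymes were thus lower on every MPH array than on any saline array.

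The stretches of 250 bases upstream of the starts of Th and Gch1, and of Chga, a granule protein described further on, are printed because these 3 genes lay below saline together and each holds the letters of a cyclic AMP response element, the site of CREB, in full or in part. They are RefSeq sequence of GRCm38.p6, on the gene's strand, from chr7:142899996-142900245 (minus strand) for Th, chr14:47189414-47189663 (minus strand) for Gch1 and chr12:102554691-102554940 (plus strand) for Chga, with capitals for TGACGTCA or its core TGACG.
Th: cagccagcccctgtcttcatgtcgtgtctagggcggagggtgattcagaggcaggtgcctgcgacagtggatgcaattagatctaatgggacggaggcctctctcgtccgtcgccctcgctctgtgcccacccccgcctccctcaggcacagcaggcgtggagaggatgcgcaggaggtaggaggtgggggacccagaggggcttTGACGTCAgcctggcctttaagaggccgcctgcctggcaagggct
Gch1: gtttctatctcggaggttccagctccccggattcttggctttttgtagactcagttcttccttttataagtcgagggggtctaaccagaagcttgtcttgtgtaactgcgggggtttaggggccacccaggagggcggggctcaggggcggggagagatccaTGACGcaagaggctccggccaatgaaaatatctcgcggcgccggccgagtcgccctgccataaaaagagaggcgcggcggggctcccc
Chga: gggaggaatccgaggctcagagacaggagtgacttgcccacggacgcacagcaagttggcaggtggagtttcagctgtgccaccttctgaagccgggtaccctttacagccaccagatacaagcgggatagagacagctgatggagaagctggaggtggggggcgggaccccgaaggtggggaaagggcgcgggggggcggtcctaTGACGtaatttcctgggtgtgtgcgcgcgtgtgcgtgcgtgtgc
Th holds the whole element 45 bases before its start, Gch1 a core 88 bases before and Chga a core 44 bases before. Searched on both strands, with the core also counted inside the whole element, TGACGTCA was found in 2.52% of the 13605 measured genes with a promoter sequence, in 2.35% of the genes above saline and in 1.83% of those below. The core was found in 25.8%, 26.7% and 27.2%. The NBRE of the nuclear receptor family of Nr4a2, AAAGGTCA, was in 1.34% of all genes, 1.92% of those above and 1.19% of those below, and the GC box GGGCGG in 53.5%, 58.3% and 58.8%. Both separated sets thus held these motifs at shares near that of all genes.

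Genes for the handling and sensing of dopamine lay below saline as well. Slc6a3, the dopamine transporter that MPH blocks, read 12.09, 12.08 and 11.90 in saline and 11.63 to 11.86 (median 11.78) after MPH. The groups were parted by 0.037 only, with a difference of -0.25 (SE 0.077, adjusted p = 0.34). The probe set of Slc18a2, the vesicular monoamine transporter, also names Pdzd8, and read 10.78, 10.94 and 10.69 in saline and 10.19 to 10.50 after MPH, a difference of -0.45. Drd2, the dopamine autoreceptor, was at 8.29, 8.26 and 8.35 in saline and 7.74 to 7.997 after MPH. Aldh1a1, which oxidizes dopamine's aldehyde product in the ventral tier of the nigra, was at 12.24, 12.38 and 12.13 in saline and 11.75 to 11.93 after MPH. These last 2 genes, with Ddc, En1 and Dlk1, were picked from the list after their values were seen.

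Receptors and other products of dopamine neurons had gaps from 0.06 to 0.663. Gucy2c, guanylate cyclase C, read 5.69, 5.82 and 5.36 in saline and 3.99 to 4.70 (median 4.53) after MPH. Its gap of 0.663 was the widest of all probe sets below saline, and its difference was -1.19 (SE 0.179), 2.29-fold lower. Chrna6, a nicotinic receptor subunit of dopamine terminals, read 8.43, 8.51 and 8.24 in saline and 7.68 to 7.88 (median 7.75) after MPH, a difference of -0.63. Its second probe set was separated too. Sncg, gamma-synuclein, read 8.98, 9.23 and 9.11 in saline and 8.41 to 8.58 after MPH, and Slc10a4, a protein of monoamine vesicles, 10.05, 9.99 and 9.97 against 9.32 to 9.59. Ret, the signalling receptor for GDNF, read 7.11, 7.42 and 6.90 in saline and 6.15 to 6.75 after MPH, a difference of -0.71 (SE 0.161). Chrnb3, the usual partner of Chrna6, was separated by 0.06, and En1 and Dlk1 by 0.094 and 0.085.

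Not all markers were separated. Nr4a2, a transcription factor that maintains these neurons, had a mean difference of -0.49, but its saline arrays (9.55, 10.27 and 9.68) overlapped the MPH arrays (8.76 to 10.00). Foxa2, another such factor, overlapped likewise with a difference of -0.58. Otx2 and Lmx1b were the members with the higher mean after MPH, by at most 0.07. The list's median was -0.46 for the arrays labelled 1 mg/kg and -0.38 for those labelled 10 mg/kg, 2 comparisons that share the saline arrays.

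**Figure D3:**
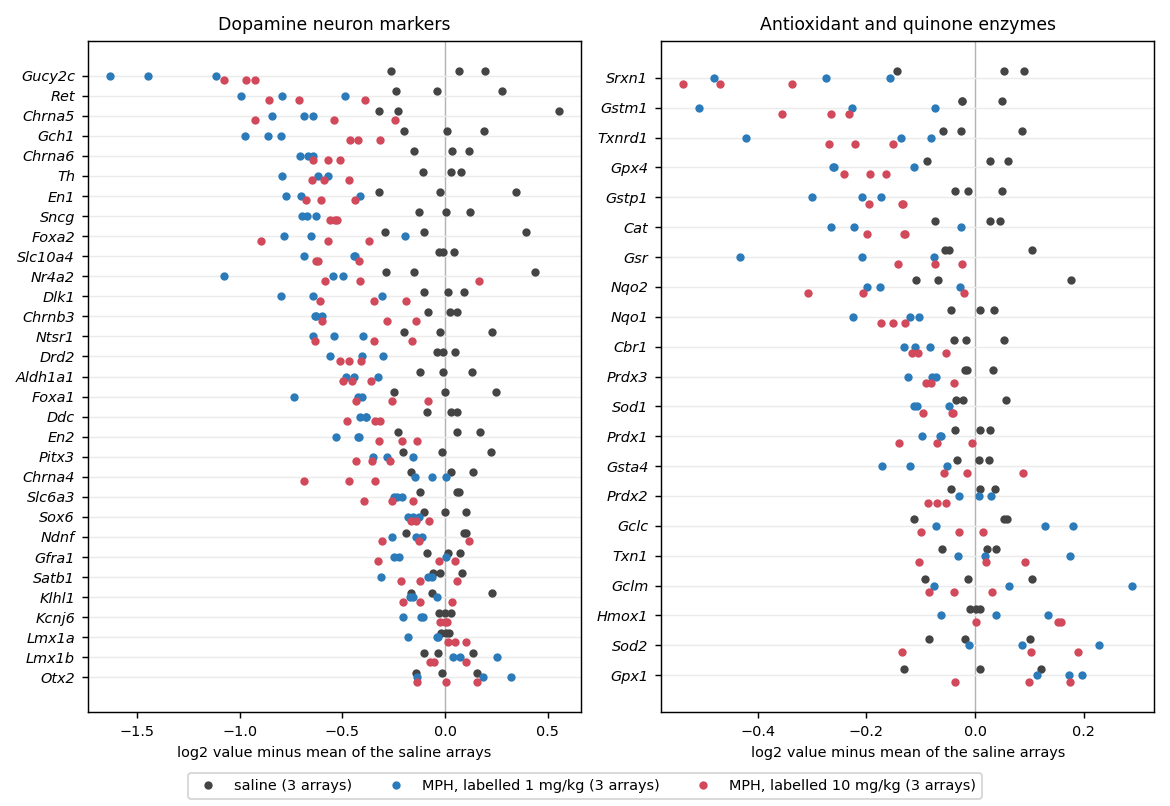
Log2 values of each array minus the saline mean for the 31 dopamine neuron markers (left) and the 21 antioxidant and quinone enzymes (right), genes ordered by their mean difference. Saline arrays are dark, arrays labelled 1 mg/kg blue and 10 mg/kg red; Gucy2c lies farthest to the left, and the enzymes on the right span a narrower range.

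Markers of other cells were read beside these values, since the dissected piece can hold more or less of the surrounding tissue. Of 8 serotonin neuron markers 1 (12.5%) was below saline, beside 7.8% of all genes. It was Gata2, with a gap of 0.005. The list had a median difference of -0.20 and array medians of -0.17 to 0.20 in saline and -0.29 to -0.09 after MPH. Its lowest member difference was -2.44, against -1.19 in the dopamine neuron list. Slc6a4, the serotonin transporter, picked after its values were seen, read 4.07, 6.44 and 5.55 in saline and 3.15 to 4.31 after MPH. Without the array labelled 10 mg/kg replicate 1, alone or with that labelled 1 mg/kg replicate 2, 5 of the 8 serotonin markers (62.5%) lay below saline. The share over all genes was then 9.61% and 10.6%. The list's medians were -0.21 and -0.19, and the part of this in the dopamine neuron result was not tested. Of 12 markers of midbrain and thalamic glutamate neurons 1 (8.33%) was above, beside 3.4% of all genes. The list had a median of 0.40, and its array medians ran from -0.67 to 0.25 in saline and from -0.33 to 0.88 after MPH. The list's median was 0.71 for the arrays labelled 1 mg/kg and 0.01 for those labelled 10 mg/kg. The 10 markers of meninges and fibroblasts all had the higher mean, with a median of 0.38, yet none was separated, and their array medians ran from -0.49 to 0.23 in saline and from -0.03 to 1.28 after MPH. The 14 GABA neuron markers, the other main neuron class of the nigra, had a median of 0.08 and none separated. The 13 markers of astrocytes had a median of -0.02 with 1 (7.69%) below, beside 7.8% of all genes. The part of tissue makeup in the results was not tested.

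**Figure D4:**
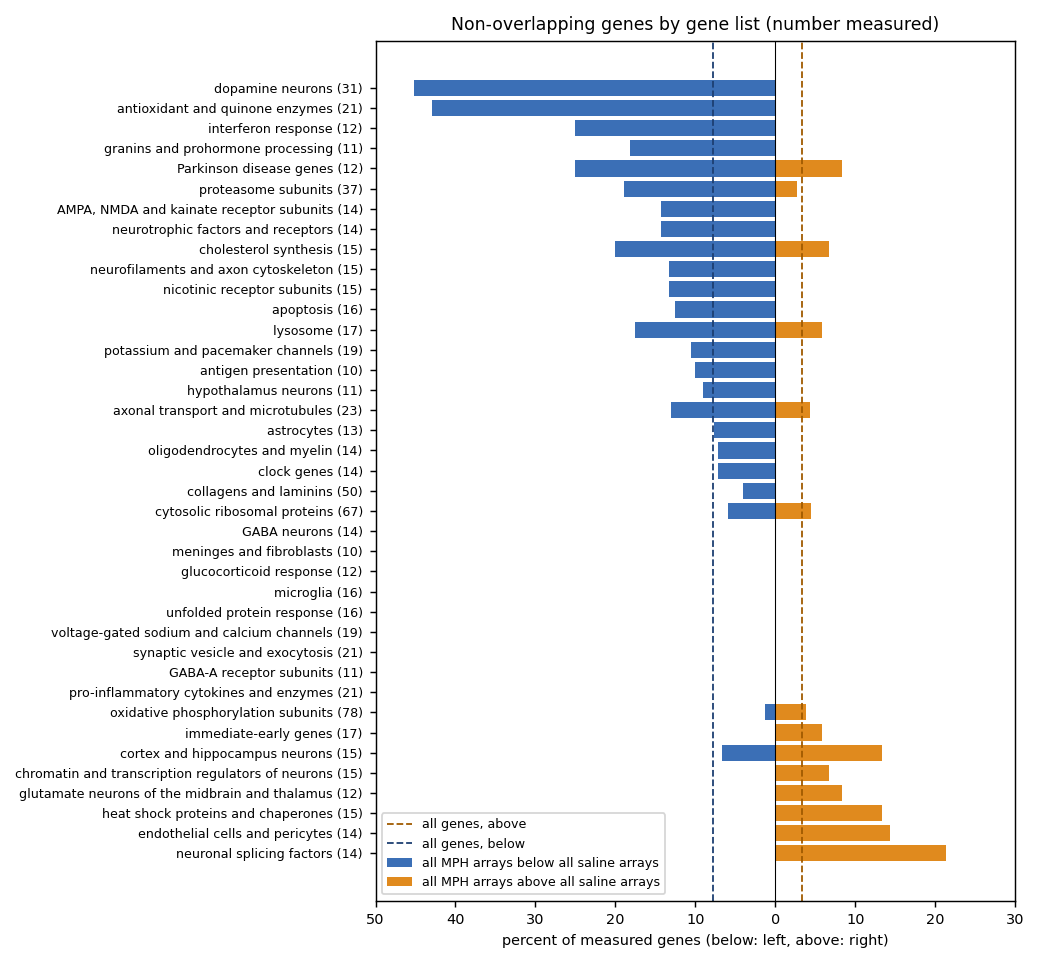
Percent of the measured genes of each list whose MPH arrays all lie below (blue, to the left) or above (orange, to the right) all saline arrays, for lists with at least 10 measured genes, given in brackets. Dashed lines mark the same over all genes, 7.8% below and 3.4% above; dopamine neuron markers reach 45.2% below and antioxidant and quinone enzymes 42.9%.

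Th, Slc6a3 and Slc18a2 are among the genes that were also assayed by PCR in the study, as are trophic and inflammatory genes. Gdnf, the trophic factor that signals through Ret, was separated but dim, at 3.14, 3.27 and 3.12 in saline and 2.94 to 3.07 after MPH, which is the range of the control probe sets. Bdnf, brain-derived neurotrophic factor, read 6.54, 7.11 and 7.005 in saline and 6.23 to 7.84 after MPH, and the groups overlapped fully (difference 0.06, SE 0.302, exact permutation p = 0.929). The inflammatory genes Il6, Tnf and Il1b differed by 0.02, 0.03 and -0.004, with values between 3.11 and 3.80. These are near those of the control probe sets (median 2.93, 90th percentile 3.55), so no change could not be told from no signal. Ptgs2, the inducible cyclooxygenase, differed by 0.31 (SE 0.212, exact permutation p = 0.238), with values from 3.36 to 4.47 after MPH around those of saline, which were 3.80, 3.58 and 3.47. The wider list of 21 pro-inflammatory cytokines and enzymes had none separated in either direction and a median of 0.02. It was dim as well, with both group means under 5 for 18 of the 21. Without the array labelled 1 mg/kg replicate 2, 2 (9.52%) lay below, beside 8.4% of all genes. Microglia markers had the lower mean in 15 of 16, with a median of -0.14 and none separated; the lysosomal glycoprotein Cd68 differed by -0.48 with overlapping groups.

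Beyond dopamine neurons, the genes parted most widely below saline had varied roles. Ccdc91, a trafficking protein of the trans-Golgi network, read 8.15, 8.20 and 7.94 in saline and 6.99 to 7.43 (median 7.32) after MPH, a difference of -0.82 (SE 0.110). Lhfpl5, a subunit of the mechanotransduction complex of hair cells, read 6.81, 6.99 and 6.80 in saline and 6.02 to 6.32 after MPH. Sorcs3, a neuronal sorting receptor, read 5.64, 6.03 and 5.73 in saline and 4.91 to 5.17 after MPH. Its other probe set differed by 0.002, so the difference of Sorcs3 rests on 1 of 2 probe sets. Epb41l1, protein 4.1N of the neuronal membrane skeleton, was separated on 2 of 3 probe sets, by 0.429 and 0.175, and the first read 8.77, 8.75 and 8.73 in saline and 8.08 to 8.30 after MPH. Among the 15 genes in each direction with the widest gaps the largest difference belonged to Inpp4a, a phosphoinositide phosphatase, at -1.60 (SE 0.274, 3.03-fold lower). Its arrays were spread widely, from 9.09 to 9.81 in saline and from 7.43 to 8.74 after MPH.

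Chga, chromogranin A of dense-core granules, read 10.08, 10.15 and 10.00 in saline and 9.40 to 9.71 (median 9.54) after MPH, a difference of -0.54 (SE 0.074). It was the leading member of the granin list, of which 9 of 11 had the lower mean and 2 (18.2%) were separated, the other being Pcsk1n by 0.008. Penk, the enkephalin precursor, was separated at -0.44, and Cry2, a repressor of the circadian clock, at -0.47. Nol3, an inhibitor of apoptosis, read 7.65, 7.61 and 7.49 in saline and 7.06 to 7.24 after MPH. Bbc3, which promotes apoptosis, was the other separated member of 16 apoptosis genes and lay below as well, by -0.26. With all arrays 2 of the 16 (12.5%) thus lay below, beside 7.8% of all genes. Without the array labelled 10 mg/kg replicate 1, 4 of the 16 (25%) lay below, beside 9.61% of all genes. Lgals3bp, a secreted glycoprotein induced by interferon, read 6.23, 6.14 and 6.01 in saline and 5.31 to 5.75 after MPH. The other separated members of 12 interferon genes, Oasl2 and Mx1, had values under 4. With these, 3 of the 12 (25%) lay below saline, beside 7.8% of all genes.

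Further genes with wide gaps below saline included Chst8, a sulfotransferase that acts on hormone glycans, at 6.97, 6.99 and 7.14 in saline and 6.17 to 6.62 after MPH, and D2hgdh, a mitochondrial dehydrogenase, at 5.23, 5.35 and 5.36 against 4.70 to 4.86. Both passed without the block (adjusted p = 0.0315 and 0.015). Among ion channels and receptors, Grik3, a kainate receptor subunit, read 7.62, 7.58 and 7.47 in saline and 7.01 to 7.33 after MPH, but its other probe set had the opposite sign. Kcnip1, which modulates potassium channels, read 7.63, 7.84 and 7.81 in saline and 7.08 to 7.53 after MPH, with the same sign on all 4 of its probe sets. Of 14 AMPA, NMDA and kainate receptor subunits 2 (14.3%) were below, and of 19 potassium and pacemaker channels 2 (10.5%), beside 7.8% of all genes. Of 19 sodium and calcium channels and 21 synaptic vesicle genes none was separated. Trf, transferrin of oligodendrocytes, was the 1 separated member of 14 myelin genes (7.14%, beside 7.8% of all genes), at 11.86, 11.88 and 11.84 against 11.32 to 11.79. The median of that list was 0.03 for the arrays labelled 1 mg/kg and -0.19 for those labelled 10 mg/kg.

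Several of the genes parted most widely above saline differed between their own probe sets. Atp6v0a1, a subunit of the vacuolar proton pump, read 4.43, 4.02 and 4.40 in saline and 5.01 to 5.79 (median 5.32) after MPH, a difference of 1.05 (SE 0.166) and a gap of 0.574. Of its other 3 probe sets 2 had the opposite sign. Cnnm1, a cation transport mediator, read 6.56, 6.38 and 6.49 in saline and 7.01 to 7.19 after MPH, a difference of 0.61 (SE 0.074), and its other 2 probe sets had the same sign. Dcun1d1, which promotes cullin neddylation, read 6.29, 6.19 and 6.34 in saline and 6.73 to 7.18 after MPH, with its other 4 probe sets divided evenly by sign. Hdlbp, an RNA-binding protein also called vigilin, differed by 0.69 on the probe set shown, and both of its other probe sets lay in the opposite direction.

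Dab2, an endocytic adaptor, read 4.98, 5.01 and 4.76 in saline and 5.32 to 5.52 after MPH, and was separated on a second probe set. Sncaip, synphilin-1, which binds alpha-synuclein, read 5.66, 5.77 and 5.90 in saline and 6.19 to 6.31 (median 6.23) after MPH, a difference of 0.46 (SE 0.074). Dclk1, a microtubule-binding kinase, read 7.84, 7.95 and 7.63 in saline and 8.22 to 8.55 after MPH, and of its 7 other probe sets 5 had the same sign, 2 of them separated. Sox11, a transcription factor of immature neurons, was separated on 2 of 6 probe sets, and all 6 had the higher mean. Ranbp3l had one of the largest differences, 1.27, and the widest spread, from 6.42 to 8.49 after MPH against 5.47, 6.15 and 6.18. Its highest array was labelled 10 mg/kg replicate 1, as was that of Slc22a6, an organic anion transporter, which read 4.53 to 6.09 after MPH.

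Other genes had varied roles. Arpp21, a calmodulin-binding phosphoprotein, read 8.35, 8.59 and 8.61 in saline and 8.85 to 9.30 after MPH, with 1 of its 3 other probe sets of opposite sign. Mdga2, a synaptic adhesion protein, read 7.54, 7.59 and 7.48 in saline and 7.81 to 7.99 after MPH, and Rtn4rl1, a receptor related to that of Nogo, 5.69, 5.44 and 5.71 against 5.93 to 6.32. Rian, a noncoding RNA of the imprinted Dlk1 and Meg3 region, read 8.46, 8.54 and 8.54 in saline and 8.75 to 8.84 after MPH. Its separated probe set had the narrowest range of MPH values of these genes, and 1 of the other 3 had the opposite sign. Dlk1 of the same region was below saline. Rorb and Prox1, transcription factors of forebrain and thalamic neurons, were above by 0.85 and 0.38, the first at 7.43, 6.82 and 6.64 in saline and 7.53 to 8.11 after MPH. Wfs1, of the same list of cortex and hippocampus neurons, was below by -0.31. Of the 15 genes of that list 2 (13.3%) thus lay above and 1 (6.67%) below, beside 3.4% and 7.8% of all genes. Among 17 immediate-early genes 13 had the higher mean. Homer1 alone (5.88%) was separated, above saline by a gap of 0.004, beside 3.4% of all genes.

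Across genes, agreement between probe sets was similar in both directions. Of the 582 genes above saline, 168 had another bright probe set, which was separated the same way in 36 (21.4%) and the opposite way in 8, and for 73.8% the next brightest had the same sign. Of the 1334 genes below, 277 had one, which was separated the same way in 72 (26%) and the opposite way in 10, and for 77.6% the next brightest had the same sign.

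**Figure D5:**
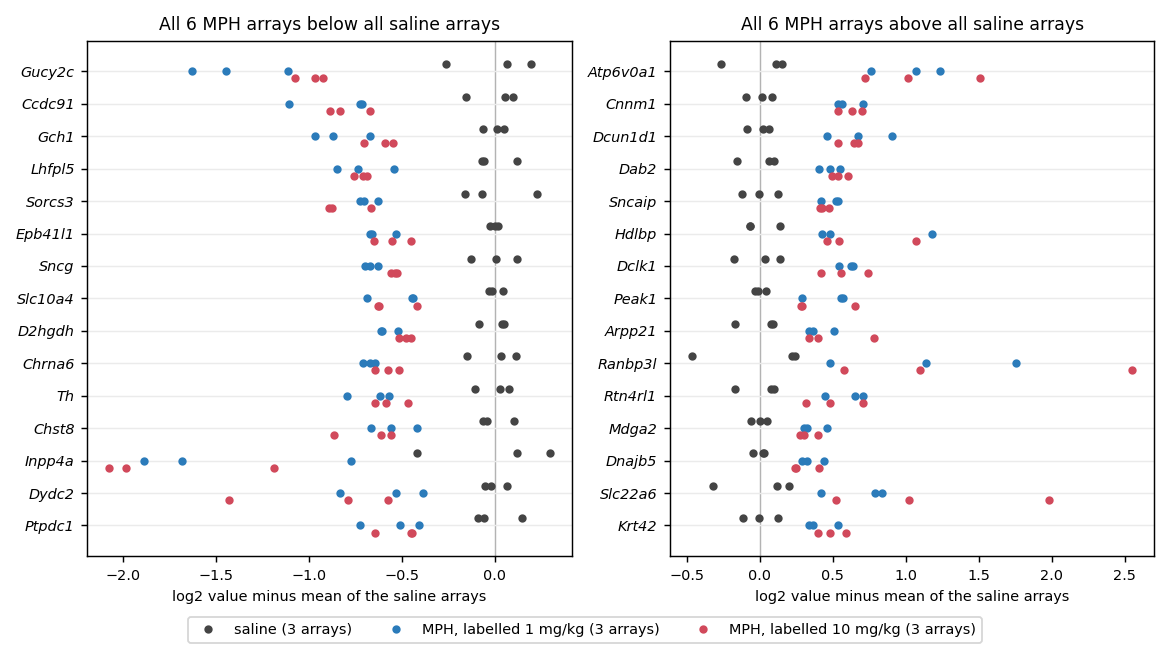
Log2 values of each array minus the saline mean for the 15 genes with the widest gap below saline (left) and above it (right), by rows from the widest gap down. Saline arrays are dark, arrays labelled 1 mg/kg blue and 10 mg/kg red. The genes were chosen for groups that do not overlap, and among them Inpp4a and Ranbp3l have the widest spread of MPH arrays.

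Enzymes that remove peroxides and quinones were the second list with a large share below saline. Of 21 measured, 9 (42.9%) had all MPH arrays below saline, beside 7.8% of all genes, and none above, and 15 had the lower mean. The differences were small, with a median of -0.08, and no member passed the test with or without the block. Gstm1 and Gstp1, glutathione transferases, read 10.17, 10.24 and 10.17 against 9.68 to 10.12, and 12.27, 12.33 and 12.24 against 11.98 to 12.15. Gpx4, the glutathione peroxidase of membrane lipids, read 11.54, 11.57 and 11.42 in saline and 11.25 to 11.40 after MPH. Nqo1, which reduces quinones, read 5.59, 5.56 and 5.51 in saline and 5.33 to 5.45 after MPH. Srxn1, Txnrd1, Cbr1, Prdx3 and Sod1 were the other separated members, with gaps of 0.021 or less. Gclc, Gclm and Hmox1, which with Nqo1 and Srxn1 are typical targets of the stress factor NRF2, differed by 0.02, 0.03 and 0.07 and were not separated.

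Protein turnover and the cytoskeleton showed smaller shares, to be read beside 7.8% below and 3.4% above over all genes. Of 37 proteasome subunits 7 (18.9%) were below saline, among them Psmd2, the regulatory subunit, at 9.89, 9.98 and 9.91 against 9.50 to 9.75, and 1 was above (Psma8, the testis form, near background). The list's median was -0.05. Of 23 genes of axonal transport and microtubules 3 (13%) lay below, namely Dctn1, Tubb3 and Dync1h1, and 1 (4.35%) above. The latter was Agtpbp1, an enzyme that trims glutamates from tubulin and whose loss kills Purkinje cells. Dctn1, the dynactin subunit, read 8.87, 8.99 and 8.95 in saline and 8.39 to 8.74 after MPH, and Agtpbp1 9.83, 9.68 and 9.40 against 9.93 to 10.11. In the lysosome list 3 of 17 (17.6%) lay below (Psap, Gaa and Ctsb) and 1 (5.88%) above (Tpp1), by at most 0.28. In cholesterol synthesis 13 of 15 had the lower mean, with a median of -0.23. Of these genes 3 (20%) were separated below (Fdft1, Mvk and Insig1), while Hmgcs1, the enzyme of an early step, was above by 0.32. Without the array labelled 10 mg/kg replicate 1, 5 of the 15 (33.3%) lay below, beside 9.61% of all genes.

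A list of 12 held genes of Parkinson's disease together with other synucleins and Sncaip, and shares Sncg with the dopamine markers. It had 3 below saline (25%) and 1 above (8.33%), beside 7.8% and 3.4% of all genes. Besides Sncg and Sncaip, these were Atp13a2, a lysosomal polyamine transporter, at 9.69, 9.64 and 9.70 against 9.40 to 9.57, and Park7, which protects against oxidation, with a difference of -0.09. Without the array labelled 10 mg/kg replicate 1, alone or together with that labelled 1 mg/kg replicate 2, 5 lay below (41.7%). The share over all genes was then 9.61% and 10.6%. Ribosomal proteins and oxidative phosphorylation subunits served as abundant housekeeping lists. Of 67 ribosomal proteins 3 (4.48%) were above and 4 (5.97%) below, with a median of 0.01. Without the array labelled 10 mg/kg replicate 1, 5 (7.46%) were above, beside 4.67% of all genes. Of 78 oxidative phosphorylation subunits 3 (3.85%) were above and 1 (1.28%) below, with a median of 0.02, a share below that was smaller than the 7.8% of all genes. Cox7b2, a subunit form of the testis, was one of the 3 and read 4.22, 3.95 and 3.75 in saline and 4.503 to 5.13 after MPH.

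Lists with members above saline were fewer, and over all genes 3.4% lay above. Of 14 neuronal splicing factors 3 (21.4%) lay above and none below, and the list's median was 0.05. Rbfox1, which regulates splicing of synaptic genes, read 9.95, 9.86 and 10.00 in saline and 10.20 to 10.68 (median 10.47) after MPH, a difference of 0.55 (SE 0.116). Mbnl1 differed by 0.16, and Nova2 was near background. Of 15 heat shock proteins and chaperones 14 had the higher mean and 2 (13.3%) were separated, Dnajb5 by 0.216 and Hsp90aa1 by 0.02. The inducible Hspa1b and Hspb1 had the largest mean differences of that list, 0.85 and 0.56, with arrays of both groups overlapping (7.84 to 8.99 against 8.01 to 10.28 for Hspa1b). Of 14 endothelial and pericyte genes 2 (14.3%) lay above, Kdr, the main VEGF receptor, by 0.35 and Cldn5, a tight junction protein, by 0.30. The gap of Cldn5 was 0.003 and only just parted the groups. GABA-A receptor subunits had the higher mean in 10 of 11, with a median of 0.11 and none separated. When both arrays that stood apart were left out, 2 (18.2%) lay above, beside 5.8% of all genes.

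Values by dose label stand side by side for a few members, whose choice already places both labels on 1 side of saline. For Th the arrays labelled 1 mg/kg differed from saline by -0.66 and those labelled 10 mg/kg by -0.57, for Chga by -0.50 and -0.58, for Lhfpl5 by -0.71 and -0.72, and for Cnnm1 by 0.60 and 0.62. Each pair of values shares its 3 saline arrays, so a saline array that was unusual for a gene would move both. The 9 arrays limit the precision, and p-values measure only the spread between these samples.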

How the data were processed

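RNA of the substantia nigra was labelled from total RNA and hybridized to 9 HT MG-430 PM arrays of Affymetrix, 1 for each mouse. The deposited log2 values were made by the authors with Robust Multichip Average (RMA, version not given in the sources used here), which corrects background, equalizes the distribution of the arrays and summarizes each probe set. ComBat, a batch correction, was applied to the 3 replicates according to the methods, and it is not stated whether it is part of the deposited table. Of the 45141 probe sets in the table, the 104 controls entered no test. In the platform annotation 28898 of the others name 1 gene, 551 several and 15588 none, and 28689 of the first had an identifier in the reference.

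The 6 MPH and 3 saline arrays were compared in R 4.3.3 by limma 3.58.1, using lmFit and eBayes, with the replicate number, taken from the sample titles, as an additive block, and with Benjamini-Hochberg adjustment over 45037 probe sets at 0.05. The replicate term had a median F of 0.073, where 0.828 would be found without any replicate effect, and same-numbered arrays deviated against each other (correlations of -0.626 to -0.132). The fit had 5 residual degrees of freedom with the block and 7 without. SE in the text comes from the fit with the block. The fit was also run on simulated data with independent noise, known changes and replicate means removed. These data held no arrays that stood apart and no difference in RNA quality, so the run does not bear on either.

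The genes named were the PCR genes of the study, in each direction the 15 genes with the widest gap and the 10 with the smallest p among probe sets with a group mean of at least 5, and up to 4 separated members of each of 48 gene lists (or 2 where none was separated), from which those printed were picked. The brightest probe set stood for a gene in the lists. The members and lists were chosen with earlier results of these data known. Alternatives were no block, 3 groups, a second quantile normalization, median centring, brighter probe sets only, an intensity trend with the robust option, array weights, other thresholds and gaps, other probe sets and each array left out. Leaving out the 2 MPH arrays that stood apart was added after seeing the data. Promoters came from RefSeq (GRCm38.p6).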

Additional observations from a re-analysis of the deposited data

Results flagged for a closer look

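On the array labelled 1 mg/kg replicate 2, Xist was 9.0024 and thus far above the other 5 MPH arrays, and Eif2s3y (4.1138), Kdm5d (4.6977) and Uty (3.534) were far below them, so this mouse differed from the others in its sex-linked RNA. On the array labelled 10 mg/kg replicate 1, Icam5 (7.1893) and Itpka (6.0343), genes of forebrain neurons, stood far above the other MPH arrays. These genes were put to the check after their values were seen. Each was picked out because its distance to the next array was large beside the range of the 6 arrays (Dixon's test). The usual rate of 1 in 20 groups picked out by chance does not hold for genes chosen so. Without either or both of these arrays, 15 to 18 of the 31 dopamine neuron markers had all MPH arrays below saline. If replicate differences were removed before deposit, an array that stood apart also shifted the arrays of its number. Leaving it out does not undo that. Xist was 2.99 in both saline replicate 2 and 10 mg/kg replicate 2, below all its other values.

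The Actb control probe sets, which no comparison used, had a 3' to 5' difference that was 0.18745 larger on average after MPH than in saline, and the groups did not overlap. Gapdh showed no such separation.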

How the results depend on the processing

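Calls depended on the replicate block and on the other settings of the fit, and the cause was not tested beyond the degrees of freedom. Probe sets called higher numbered 51 without the block, 0 with 3 groups, 0 at an adjusted p of 0.01 and 0 to 1 with an array left out, the call being lost without saline replicate 2 or 3, 10 mg/kg replicate 2 or 3, or 1 mg/kg replicate 1 or 2. Those called lower numbered 101 without the block and 9 with the block, an intensity trend and the robust option. They numbered 0 to 2 with an array left out (1 without saline replicate 2, 2 without 10 mg/kg replicate 1). Of 64 genes followed, 27 passed without the block and 0 with the block alone. With the block, the trend and the robust option, Th, Sncg, Slc10a4, Chga, Epb41l1, Ccdc91 and Chrna6 passed (adjusted p from 0.0251 to 0.0385). Th, at -0.614, had an adjusted p of 0.0205 without the block and 0.0251 with the trend and robust option, and lay between -0.686 and -0.522 with an array left out. Of the probe sets above saline, 327 had a gap of at least 0.1 and 1057 were among the brighter ones, and with an array left out the count was 2132 to 3244. Of those below, 525 had such a gap, 1680 were brighter, and the count was 2901 to 4407, the highest without saline replicate 3, as fewer arrays separate more easily. Of the separated probe sets, 93% stayed so after a second quantile normalization, 90.5% after median centring and 93.8% after removal of replicate means. Bdnf turned to -0.0754 with array weights. With an array left out Bdnf lay between -0.201 and 0.238, Il6 between -0.0263 and 0.0618, Tnf between -0.00258 and 0.049 and Il1b between -0.07665 and 0.106. Another probe set reversed Atp6v0a1 (-0.141), Dcun1d1 (-0.0482), Hdlbp (-0.0456 and -0.196), Arpp21 (-0.0542), Rian (-0.00872) and Sorcs3 (0.00195). Medians of 33 of the 48 gene lists moved by less than the spread of the MPH arrays under every alternative run.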

Other observations

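The directions differed in how well their probe sets were annotated. A single gene was named by 64.2% of all probe sets, by 58.3% of those with all MPH arrays above saline and by 74.6% of those with all MPH arrays below. The probe set with the widest gap names no gene. Malat1, an abundant nuclear noncoding RNA, is named by 5 probe sets, by 1 of them alone, and these were looked at after their values were seen. Of the 5, 2 were separated above saline, and both of these also name Ramp2. One read 6.76, 6.73 and 6.69 in saline and 7.08 to 7.73 (median 7.54) after MPH, and the other read 7.75, 7.84 and 7.85 in saline and 8.07 to 8.68. The probe set naming Malat1 alone overlapped, at 8.84, 8.80 and 8.75 in saline and 8.82 to 9.26 after MPH. Of the remaining 2, which also name Ramp2, 1 differed by -0.11 and the other by 0.29, both with overlapping groups.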
